A study of Mus musculus with 35 samples.

Results

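The genes described are *Mest* and *Copg2*, *Nap1l5*, and the cluster of *Sgce*, *Peg10*, *Ppp1r9a* and *Asb4*, which lie in imprinted domains of mouse chromosome 6. They were chosen from the differences between *Tet3* m/m and *Tet3*+/+ cells measured in these same data, and grouped by their place on the chromosome. They are 7 of 18930 genes listed in any of 3 deposited tables of normalized RNA-seq counts, and all 7 are in each table. Because those differences chose the genes, *Tet3* m/m against *Tet3*+/+ is given for them as a description with no test. The comparisons of *Tet3*-/- with *Tet3*+/+ cells and of the Dnmt1 vector with its empty control were tested, and the Tet3-CD vector has no replicates. The tests of Dnmt1 in *Tet3* m/m cells, and of their difference from *Tet3*+/+ cells, start from EV samples whose low *Tet3* m/m values are of the kind that chose the genes, and such a choice favours an upward effect there. The *Tet3*+/+ samples of day 3 and with EV enter differences of the same kind. They are the reference of the *Tet3*-/- tests, of Dnmt1 in *Tet3*+/+ cells and of the vector effects compared between genotypes. Those p-values are therefore not independent of the choice either.

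The study asked which roles of TET3 in early neural differentiation need its catalytic activity. Mouse embryonic stem cells (ESCs) of the male line V6.5, a 129 and C57BL/6 mix, carried unedited *Tet3* (*Tet3*+/+), a pair of point mutations in the iron-binding site on both alleles (*Tet3* m/m), or a deletion within *Tet3* on both alleles (*Tet3*-/-). After withdrawal of LIF the cells received 1 µM retinoic acid for 72 h, which gives neuroectoderm-like (NE) cells on day 3. The 26 RNA-seq samples form 3 experiments, normalised separately. The day 3 experiment held 3 samples of *Tet3*+/+, 3 of *Tet3* m/m and, as the smallest group, 2 of *Tet3*-/-, which the study describes as independent clones. The Dnmt1 experiment held 2 samples of each genotype with an empty vector (EV) and 2 of each with a plasmid for myc-tagged DNMT1 under the CAG promoter. By the study's methods these plasmids were given at the start of differentiation, and blasticidin was added only for the final stretch before collection. The Tet3-CD experiment held 1 sample of each genotype with EV and 1 with a plasmid for the HA-tagged TET3 catalytic domain joined to tdTomato, given on day 2. Its cells are labelled like the rest, but by the study's methods they were taken 2 days after that plasmid, so their stage may be later than that of the other experiments. What the replicates of the transfection experiments were is not labelled. Total reads recovered from the tables ran from 36594650 to 47710548 per sample on day 3, from 31155842 to 50845950 in the Dnmt1 experiment, and from 33475041 to 37707719 in the Tet3-CD experiment.

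An imprinted gene is read mainly from the copy inherited from a given parent, because marks such as DNA methylation, laid down in the germ line of the other parent, keep the remaining copy silent. *Mest*, *Nap1l5*, *Peg10* and *Sgce* are paternally expressed and have promoters methylated on the maternal copy, *Asb4* and *Ppp1r9a* are maternally expressed in some tissues, and *Copg2* is read from both copies in many tissues. For a paternally expressed gene, loss of the paternal copy removes nearly all of its RNA, whereas a gene read from both copies keeps the RNA of the other copy. Gene-level counts do not tell the parental alleles apart, and no table gives DNA copy number.

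*Tet3* itself lies on chromosome 6 and serves as a check of the labels, although its gene-level count includes exons outside the deletion. On day 3 its normalized counts were 4613, 4576 and 5020.0 in *Tet3*+/+ cells, 2666, 2277 and 1945 in *Tet3* m/m cells and 1796 and 2329 in *Tet3*-/- NE cells. Every edited sample was below every *Tet3*+/+ sample, and the 2 edited genotypes overlapped. With EV in the Dnmt1 experiment *Tet3* was at 2957 and 3075 in *Tet3*+/+ cells, 1125 and 964 in *Tet3* m/m cells and 2520.0 and 2571 in *Tet3*-/- cells, so the *Tet3*-/- cells of that experiment were lower by far less, at 84.4% of *Tet3*+/+. The Tet3-CD vector raised *Tet3* from 4755 to 5441 in *Tet3*+/+, from 1850.0 to 5232 in *Tet3* m/m and from 2070.0 to 2759 in *Tet3*-/- cells. *Dnmt1* rose with its vector from 14679 and 15225 to 22799 and 23768 in *Tet3*+/+, from 11934 and 11285 to 20245 and 23211 in *Tet3* m/m and from 17356 and 17554 to 33380.0 and 39854 in *Tet3*-/- cells, with no overlap between vectors in any genotype.

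The summed normalized count of 10 neuroectoderm markers, all in the tables, was 31283, 29850.0 and 36422 in *Tet3*+/+ cells, 26680.1, 31349.9 and 32268 in *Tet3* m/m cells and 39419 and 36881 in *Tet3*-/- samples on day 3, with *Nes* or *Meis2* the most abundant and *Hes5* at 0 in *Tet3* m/m replicate 1. In the Dnmt1 experiment it was 25323 and 25846 in *Tet3*+/+ cells, 23301 and 22295 in *Tet3* m/m cells and 30177 and 29299 in *Tet3*-/- cells with EV, and 28316 and 27490.2, then 24896 and 24569, then 31475 and 32465 with Dnmt1, and in *Tet3* m/m cells the most abundant marker was *Sox2*, which pluripotent cells also express, at 14731 and 14051 with EV and 14711 and 14254 with Dnmt1. In the Tet3-CD experiment it was 16919 and 17655 in *Tet3*+/+ cells, 25499.9 and 24962 in *Tet3* m/m cells, and 16299.9 and 23962 in *Tet3*-/- cells with EV and Tet3-CD. 6 pluripotency markers summed to 5803, 7466 and 4865 in *Tet3*+/+ cells, 5620.2, 9066 and 15762 in *Tet3* m/m cells and 7544 and 4322 in *Tet3*-/- on day 3, to 20556 and 20453, then 62510.5 and 61116, then 4149.9 and 4287 with EV, to 22439 and 22375, then 67262 and 65872, then 6295 and 6129 with Dnmt1, and in the Tet3-CD experiment, with EV and Tet3-CD, to 6599 and 5017, 13890.4 and 13465, and 9560.2 and 6040.0. *Nanog*, *Tfcp2l1* or *Klf4* was the most abundant, and the *Tet3* m/m cells of the Dnmt1 experiment were far above all other samples. With *Sox2* as most of their neuroectoderm sum, the markers of those *Tet3* m/m cells go against the NE label. 6 fibroblast markers, led by *Col1a1*, summed in the same order to 21938, 11934 and 16603, then 14493, 9434 and 6556, then 37056 and 40838 on day 3, to 12082 and 10926, then 1799.5 and 2069, then 28751 and 28622 with EV, to 13826 and 12679, then 2861 and 2969, then 29717 and 40232 with Dnmt1, and to 28175 and 31302, 24081 and 22149, and 19379 and 27280.1 in the Tet3-CD experiment. They were lowest in the *Tet3* m/m cells of the Dnmt1 experiment, and *Lum* was at 0 in the *Tet3* m/m and *Tet3*-/- libraries with Tet3-CD. 6 endoderm markers, led by *Dab2* or *Gata6*, summed to 8920.5, 8141 and 8730.4, then 9024, 10331 and 12249, then 7423 and 9943 on day 3, to 16853 and 17252, then 44283 and 42455, then 10049.7 and 9599 with EV, to 14898 and 16507, then 39395 and 40417, then 9653 and 9437 with Dnmt1, and to 50732 and 44809.7, 12494 and 12076, and 14625 and 9675 in the Tet3-CD experiment, where the *Tet3*+/+ libraries stood highest. In these *Tet3*+/+ libraries the endoderm sums, 50732 and 44809.7, exceeded the neuroectoderm sums, 16919 and 17655, so their markers also go against the NE label. The *Tet3*+/+ libraries are the reference of every genotype ratio in the Tet3-CD experiment. Fibroblast sums exceeded neuroectoderm sums in these libraries too, and in both *Tet3*-/- libraries of that experiment. The same held for *Tet3*-/- replicate 2 on day 3 and for *Tet3*-/- replicate 2 with Dnmt1. For those samples too, NE is used as a label only. These sums set 6 markers beside 10 and are not corrected for gene length. 5 of 6 early mesoderm markers were in the tables, led by *Kdr* or *Hand1*, and summed to between 492 and 766 on day 3, between 511 and 1031 in the Dnmt1 experiment and between 567 and 2244 in the Tet3-CD experiment. The part of these other cell markers in the levels of the imprinted genes was not tested, and fewer cells of a type and less RNA per cell cannot be told apart.

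*Mest* encodes a protein with the alpha/beta-hydrolase fold and is read from the paternal copy. On day 3 its normalized counts were 36223, 31972 and 35503 in *Tet3*+/+ cells, 363, 516 and 364 in *Tet3* m/m cells and 34766 and 24732 in *Tet3*-/- NE cells. All 3 *Tet3* m/m clones lay far below every other sample, while the *Tet3*-/- clones overlapped *Tet3*+/+, with *Tet3*-/- replicate 1 inside the *Tet3*+/+ range and replicate 2 below it. Group means were 34566 ± 2275 (SD, n = 3) in *Tet3*+/+ cells, 414 ± 88.0 (SD, n = 3) in *Tet3* m/m cells and 29749 ± 7095 (SD, n = 2) in *Tet3*-/- cells. Relative to that *Tet3*+/+ mean the *Tet3* m/m clones held 1.05, 1.49 and 1.05% of the RNA, with 354, 612 and 358 reads behind those values. The *Tet3*-/- cells had a log2 difference of -0.24 (SE 0.18; limma, Benjamini-Hochberg adjusted p 0.484), lower than the *Tet3*+/+ mean in 1 of 2 samples, and without *Tet3*-/- replicate 2 the difference was 0.01.

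In the Dnmt1 experiment with EV, the counts of *Mest* were 29757 and 28097 in *Tet3*+/+ cells, 135.3 and 121 in *Tet3* m/m cells and 29317 and 28908 in *Tet3*-/- cells. *Tet3* m/m cells were at 0.443% of *Tet3*+/+, a smaller share than in any day 3 clone, and *Tet3*-/- and *Tet3*+/+ overlapped. The *Tet3*-/- cells had a log2 difference of 0.01 (SE 0.06; limma, Benjamini-Hochberg adjusted p 0.901), above the *Tet3*+/+ mean in 1 of 2 samples, and the sign turned without 1 *Tet3*+/+ library (-0.03) or without *Tet3*-/- replicate 1 (-0.000369). With the Dnmt1 vector the counts were 34684 and 33178 in *Tet3*+/+ cells, 195 and 197 in *Tet3* m/m cells and 23929 and 22036 in *Tet3*-/- cells. *Mest* was therefore higher with Dnmt1 than with EV in *Tet3*+/+ and *Tet3* m/m cells and lower in *Tet3*-/- cells, with no overlap between the vectors in any genotype. In *Tet3*+/+ cells Dnmt1 gave a log2 difference of 0.23 (SE 0.06; limma, Benjamini-Hochberg adjusted p 0.0188), higher in 2 of 2 samples and short of the 1.5-fold threshold, and the adjusted p reached 0.22 when single libraries were left out. In *Tet3* m/m cells Dnmt1 gave a log2 difference of 0.61 (SE 0.06; limma, Benjamini-Hochberg adjusted p 2.09e-07), higher in 2 of 2 samples and past the threshold, although the level stayed at 0.577% of *Tet3*+/+ with the same vector. Without *Tet3* m/m EV replicate 2 that difference was 0.53 (limma, Benjamini-Hochberg adjusted p 1.64e-05, higher in 2 of 2 samples), under 1.5-fold, and over the alternatives the adjusted p ran from 5.32e-08 to 0.0261. In *Tet3*-/- cells Dnmt1 gave a log2 difference of -0.34 (SE 0.06; limma, Benjamini-Hochberg adjusted p 0.000310), lower in 2 of 2 samples, and with Dnmt1 in both genotypes *Mest* stood at 67.7% of *Tet3*+/+, whose own level was higher than with EV.

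The vector effect on *Mest* differed between genotypes in the same fit. As *Tet3* m/m minus *Tet3*+/+ cells the interaction was a log2 difference of 0.38 (SE 0.08; limma, Benjamini-Hochberg adjusted p 0.0150), with the *Tet3* m/m effect upward in 2 of 2 samples. On reads recovered from the deposited values the adjusted p was 0.122 with edgeR and 0.138 with DESeq2, and it ran from 0.0114 to 0.138 over the alternatives and up to 0.127 when single libraries were left out, so this difference depended on the tool. As *Tet3*-/- minus *Tet3*+/+ cells it was a log2 difference of -0.57 (SE 0.08; limma, Benjamini-Hochberg adjusted p 8.38e-05), with the *Tet3*-/- effect downward in 2 of 2 samples. That adjusted p ran from 3.92e-13 to 0.000300 over the alternatives, and the size passed 1.5-fold without 1 *Tet3*+/+ EV library (-0.61), without *Tet3*+/+ Dnmt1 replicate 2 (-0.60) or without *Tet3*-/- Dnmt1 replicate 1 (-0.63).

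The Tet3-CD experiment had no replicates, so its intervals, here and for the other genes, cover counting error only. With EV the *Mest* counts were 25150.0 in *Tet3*+/+ cells, 341 in *Tet3* m/m cells and 14967 in *Tet3*-/- cells, and with Tet3-CD they were 27244, 277 and 15811. Again the *Tet3* m/m libraries were the lowest by far, and here both *Tet3*-/- libraries were also below both *Tet3*+/+ libraries. With EV the ratio of *Tet3* m/m to *Tet3*+/+ was 0.0135 and that of *Tet3*-/- to *Tet3*+/+ was 0.595 (95% interval 0.583 to 0.607). The catalytic domain changed *Mest* by a ratio of 1.08 (95% interval 1.06 to 1.10) in *Tet3*+/+ cells, 0.813 (95% interval 0.695 to 0.951) in *Tet3* m/m cells and 1.06 (95% interval 1.03 to 1.08) in *Tet3*-/- cells. In the pair of *Tet3* m/m libraries *Mest* did not rise and *Tet3* rose 2.83 (95% interval 2.69 to 2.98) times. That *Tet3* count does not tell plasmid from mutant RNA, and the part of TET3 activity in the *Mest* level was not tested. Across the 3 experiments the *Tet3* m/m level of *Mest* ranged from 0.443% to 1.35% of the *Tet3*+/+ group with the same vector, and the *Tet3*-/- level from 58.0% to 101%.

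*Copg2* encodes a subunit of the COPI vesicle coat and lies next to *Mest* on the opposite strand. The spans of the 2 genes overlap in the annotation, and since the strand setting of the read counting is not stated, reads from the shared stretch cannot be told apart. Its day 3 counts were 3513, 3664 and 3536 in *Tet3*+/+ cells, 1565, 1719 and 1633 in *Tet3* m/m cells and 3883 and 3080.0 in *Tet3*-/- NE cells. All 3 *Tet3* m/m clones formed a narrow group below all other samples, and the *Tet3*-/- clones fell on either side of the *Tet3*+/+ range. Against the *Tet3*+/+ mean the *Tet3* m/m clones stood at 43.8, 48.1 and 45.7%, somewhat below the 50% of a 2-fold loss. Whether a copy of *Copg2* was lost was not tested. The *Tet3*-/- difference was -0.05 (SE 0.11; limma, Benjamini-Hochberg adjusted p 0.859), lower in 1 of 2 samples, and it was 0.12 without *Tet3*-/- replicate 2.

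In the Dnmt1 experiment *Copg2* was at 4047 and 3976 in *Tet3*+/+ cells, 2132 and 2146 in *Tet3* m/m cells and 3510.0 and 3699 in *Tet3*-/- cells with EV, and at 3720.0 and 3388, then 2079 and 2193, then 3046 and 3146 with Dnmt1. Lowest under either vector were the *Tet3* m/m cells, at 53.3% and 60.1% of *Tet3*+/+, and no *Tet3* m/m value reached a *Tet3*-/- or *Tet3*+/+ value. *Tet3*-/- cells with EV had a log2 difference of -0.15 (SE 0.06; limma, Benjamini-Hochberg adjusted p 0.0273), lower in 2 of 2 samples and under 1.5-fold. In *Tet3*-/- cells Dnmt1 gave a log2 difference of -0.22 (SE 0.06; limma, Benjamini-Hochberg adjusted p 0.0131), lower in 2 of 2 samples. With single libraries left out these 2 adjusted p reached 0.198 and 0.154, so neither held in every fit. In *Tet3* m/m cells the vectors overlapped with a difference near 0 (SE 0.06; limma, Benjamini-Hochberg adjusted p 0.987, lower in 1 of 2 samples). In *Tet3*+/+ cells Dnmt1 gave a log2 difference of -0.18 (SE 0.06; limma, Benjamini-Hochberg adjusted p 0.0755), lower in 2 of 2 samples. With EV and Tet3-CD the counts were 2512 and 2569 in *Tet3*+/+ cells, 1091 and 1135 in *Tet3* m/m cells, and 3018 and 2468 in *Tet3*-/- cells. Again the *Tet3* m/m libraries were lowest, with a ratio to *Tet3*+/+ of 0.434 under EV, and Tet3-CD left them within counting error, at 1.04 (95% interval 0.959 to 1.13). *Copg2* in *Tet3* m/m cells thus lay between 43.4% and 60.1% of *Tet3*+/+ in every vector group, while *Mest*, its neighbour, stayed under 2% of *Tet3*+/+ in each.

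**Figure D1:**
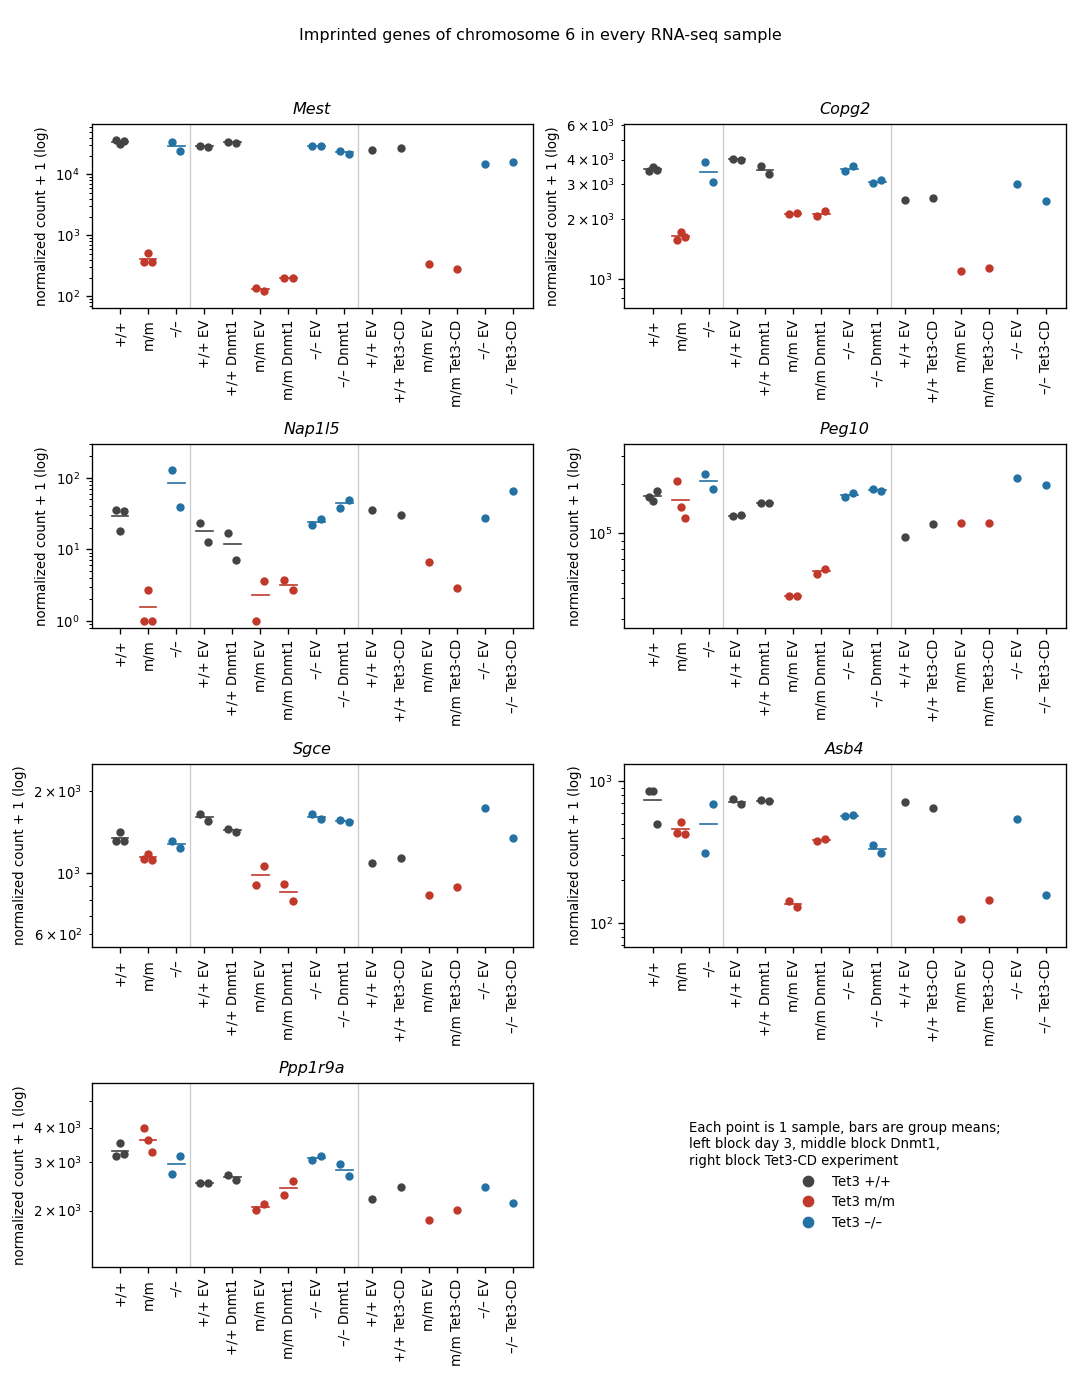
Normalized count plus 1 (log axis) of each of the 7 genes in all 26 samples, grouped by experiment, genotype and vector, with a point for each sample. *Mest* is at 516 or less in every *Tet3* m/m sample and at 14967 or more in every other sample, and *Copg2* in *Tet3* m/m samples lies between 1091 and 2193.

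*Nap1l5* encodes a nucleosome assembly protein-like protein and is an intronless gene inside the span of *Herc3*, so reads from the shared stretch cannot be told apart from those of the host. It gave few reads, 36, 18 and 34 in *Tet3*+/+ cells, 0, 2 and 0 in *Tet3* m/m cells and 122 and 34 in *Tet3*-/- samples on day 3. The normalized counts were 34.7, 16.8 and 33.6 in *Tet3*+/+ cells, 0, 1.69 and 0 in *Tet3* m/m cells and 129 and 38.7 in *Tet3*-/- NE cells. 2 of 3 *Tet3* m/m clones were at 0 and all 3 lay below every *Tet3*+/+ clone, while both *Tet3*-/- clones lay above every *Tet3*+/+ clone, replicate 1 most of all. Pooled over the clones, the ratio of *Tet3* m/m to *Tet3*+/+ was 0.0226, from 2 against 88 reads. For *Tet3*-/- to *Tet3*+/+ it was 3.04 (95% interval 2.32 to 3.99), from 156 against 88 reads, an interval for counting error alone. Over replicate spread the *Tet3*-/- cells had a log2 difference of 1.36 (SE 0.76; limma, Benjamini-Hochberg adjusted p 0.342), higher in 2 of 2 samples, which did not pass the threshold and ran from 0.503 to 2.22 when single libraries were left out.

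With EV in the Dnmt1 experiment *Nap1l5* had 23 and 10 reads in *Tet3*+/+ cells, 0 and 2 in *Tet3* m/m cells and 26 and 24 in *Tet3*-/- cells, as normalized counts of 22.7 and 11.6, then 0 and 2.60, then 21.1 and 25.4. Both *Tet3* m/m samples were again below the other genotypes, with a pooled ratio to *Tet3*+/+ of 0.0610. With Dnmt1 the reads were 15 and 6 in *Tet3*+/+ cells, 3 and 2 in *Tet3* m/m cells and 46 and 41 in *Tet3*-/- cells, with normalized counts of 16.0 and 6.04, then 2.68 and 1.73, then 37.0 and 48.8. The *Tet3*-/- cells with Dnmt1 stood above all other samples of that experiment, and the vectors overlapped in *Tet3*+/+ and *Tet3* m/m cells. With intervals for counting error alone, the pooled ratio of Dnmt1 to EV was 0.617 (95% interval 0.339 to 1.10) in *Tet3*+/+ cells, 2.05 (95% interval 0.335 to 21.5) in *Tet3* m/m cells and 1.82 (95% interval 1.27 to 2.63) in *Tet3*-/- cells. At 5 against 2 reads a change in *Tet3* m/m cells was not detectable at this depth. Over replicates the *Tet3*-/- vector effect was a log2 difference of 0.85 (SE 0.71; limma, Benjamini-Hochberg adjusted p 0.5003), higher in 2 of 2 samples, and *Tet3*-/- against *Tet3*+/+ with EV was a log2 difference of 0.48 (SE 0.71; limma, Benjamini-Hochberg adjusted p 0.594), higher than the *Tet3*+/+ mean in 2 of 2 samples. Neither passed the threshold, and with single libraries left out they ran from 0.653 to 1.04 and from 0.0263 to 0.939. Reads in the Tet3-CD experiment, with EV and Tet3-CD, were 32 and 30 in *Tet3*+/+ cells, 6 and 2 in *Tet3* m/m cells, and 26 and 68 in *Tet3*-/- cells, as normalized counts of 34.2 and 29.6, 5.59 and 1.88, and 26.1 and 64.3. Both *Tet3* m/m libraries were lowest, at a ratio to *Tet3*+/+ of 0.163 with EV. Tet3-CD over EV gave 2.47 (95% interval 1.55 to 4.04) in *Tet3*-/- cells and 0.336 (95% interval 0.0332 to 1.88) in *Tet3* m/m cells, and the latter interval spans no change. *Herc3*, the host gene, was at 858, 869.5 and 974 in *Tet3*+/+ and 587, 657 and 575 in *Tet3* m/m clones on day 3, which is 67.3% of *Tet3*+/+ beside 1.98% for *Nap1l5* inside it.

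*Peg10* derives from a retrotransposon, encodes gag- and pol-like proteins needed in the placenta, and is paternally expressed together with *Sgce*, which starts next to it on the other strand. Its day 3 counts were 167374, 157026 and 182044 in *Tet3*+/+ cells, 209656, 145372 and 124338 in *Tet3* m/m cells and 232351 and 186194 in *Tet3*-/- NE cells. These *Tet3* m/m clones spread widely around the *Tet3*+/+ range, from 73.7 to 124% of the *Tet3*+/+ mean, and both *Tet3*-/- clones lay above every *Tet3*+/+ clone. The *Tet3*-/- difference was 0.30 (SE 0.21; limma, Benjamini-Hochberg adjusted p 0.433), higher in 2 of 2 samples, and did not pass the threshold. EV cells of the Dnmt1 experiment had counts of 127067 and 129922 in *Tet3*+/+ cells, 41420.0 and 41182 in *Tet3* m/m cells and 167400.0 and 177981 in *Tet3*-/- cells. Here the *Tet3* m/m cells were at 32.1% of *Tet3*+/+, whereas on day 3 they averaged 94.7%, and the *Tet3*-/- cells were above *Tet3*+/+ without overlap. *Tet3*-/- against *Tet3*+/+ gave a log2 difference of 0.43 (SE 0.04; limma, Benjamini-Hochberg adjusted p 3.09e-08), higher in 2 of 2 samples but under 1.5-fold.

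With Dnmt1 the *Peg10* counts were 153851 and 154286 in *Tet3*+/+ cells, 56757 and 60925 in *Tet3* m/m cells and 187033 and 181436 in *Tet3*-/- cells. Every Dnmt1 sample was above the EV samples of its genotype, and the *Tet3* m/m cells remained lowest at 38.2% of *Tet3*+/+. Dnmt1 over EV gave a log2 difference of 0.26 (SE 0.04; limma, Benjamini-Hochberg adjusted p 0.000858) in *Tet3*+/+ cells, higher in 2 of 2 samples. It gave a log2 difference of 0.51 (SE 0.04; limma, Benjamini-Hochberg adjusted p 3.91e-08) in *Tet3* m/m cells, higher in 2 of 2 samples and under 1.5-fold. It gave a log2 difference of 0.09 (SE 0.04; limma, Benjamini-Hochberg adjusted p 0.159) in *Tet3*-/- cells, higher in 2 of 2 samples. The *Tet3* m/m minus *Tet3*+/+ vector effect was a log2 difference of 0.25 (SE 0.06; limma, Benjamini-Hochberg adjusted p 0.0394), with both *Tet3* m/m samples upward, and its adjusted p ran from 0.00445 to 0.0542 over the alternatives and up to 0.217 when single libraries were left out. Counts in the Tet3-CD experiment, with EV and Tet3-CD, were 95415 and 113710.0 in *Tet3*+/+ cells, 115613 and 116610.0 in *Tet3* m/m cells, and 219228 and 198598 in *Tet3*-/- cells. Here *Tet3* m/m was not below *Tet3*+/+, with a ratio of 1.21 under EV, and *Tet3*-/- was the highest, at 2.30 (95% interval 2.28 to 2.32). Against EV, Tet3-CD gave 1.19 (95% interval 1.18 to 1.20) in *Tet3*+/+ cells, 1.01 (95% interval 1.00 to 1.02) in *Tet3* m/m cells and 0.906 (95% interval 0.900 to 0.911) in *Tet3*-/- cells.

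*Sgce* encodes epsilon-sarcoglycan, a membrane protein of the dystrophin-associated complex. Day 3 counts were 1311, 1413 and 1308 in *Tet3*+/+ cells, 1130.0, 1174 and 1123 in *Tet3* m/m cells and 1317 and 1242 in *Tet3*-/- NE cells. The *Tet3* m/m clones lay just below the *Tet3*+/+ range, at 85.0% of its mean, and the *Tet3*-/- clones overlapped it. In the Dnmt1 experiment *Sgce* was at 1651 and 1561 in *Tet3*+/+ cells, 908 and 1059 in *Tet3* m/m cells and 1643 and 1580.0 in *Tet3*-/- cells with EV, and at 1456 and 1416, then 914 and 794, then 1565 and 1535 with Dnmt1. Under both vectors the *Tet3* m/m cells were lowest, at 61.2% and 59.5% of *Tet3*+/+, and *Tet3*-/- cells overlapped *Tet3*+/+ with EV. In the tested comparisons *Sgce* had log2 differences of -0.07 for *Tet3*-/- on day 3 and 0.01 for *Tet3*-/- with EV, and of -0.16, -0.20 and -0.06 for Dnmt1 in *Tet3*+/+, *Tet3* m/m and *Tet3*-/- cells. The smallest adjusted p among those 5 was 0.130 (limma, Benjamini-Hochberg), for Dnmt1 in *Tet3* m/m cells, lower than the EV mean in 2 of 2 samples. For EV and Tet3-CD the counts of the last experiment were 1088 and 1134 in *Tet3*+/+ cells, 835 and 889 in *Tet3* m/m cells, and 1733 and 1349 in *Tet3*-/- cells. *Tet3* m/m was below *Tet3*+/+ at a ratio of 0.768 and *Tet3*-/- above it at 1.59 (95% interval 1.47 to 1.72) with EV, the same order as for *Copg2*. With Tet3-CD the *Tet3*-/- level fell, at a ratio of 0.779 (95% interval 0.725 to 0.836), and the *Tet3*+/+ and *Tet3* m/m ratios of 1.04 (95% interval 0.958 to 1.14) and 1.06 (95% interval 0.970 to 1.17) were within counting error.

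*Asb4* encodes an ankyrin-repeat protein with a SOCS box that links substrates to a ubiquitin ligase, and it is maternally expressed. On day 3 its counts were 850.0, 857 and 500.1 in *Tet3*+/+ cells, 432, 511 and 424 in *Tet3* m/m cells and 309.6 and 688 in *Tet3*-/- NE cells. The *Tet3*+/+ clones were uneven, with replicate 3 lowest, so that *Tet3* m/m replicate 2 reached into the *Tet3*+/+ range, and the *Tet3*-/- clones lay apart, at 42.1 and 93.5% of the *Tet3*+/+ mean. The *Tet3*-/- difference was -0.63 (SE 0.32; limma, Benjamini-Hochberg adjusted p 0.299), lower in 2 of 2 samples, which did not pass the threshold, and it ran from -1.20 to -0.05 when single libraries were left out. Individual *Tet3* m/m clones stood at 58.7, 69.4 and 57.6% of the *Tet3*+/+ mean, between a 2-fold loss and no loss. EV cells of the Dnmt1 experiment had *Asb4* counts of 745 and 690.0 in *Tet3*+/+ cells, 142 and 128 in *Tet3* m/m cells and 564 and 579.8 in *Tet3*-/- cells. The 3 genotypes did not overlap, with *Tet3* m/m at 18.8% and *Tet3*-/- at 79.7% of *Tet3*+/+. *Tet3*-/- cells had a log2 difference of -0.33 (SE 0.11; limma, Benjamini-Hochberg adjusted p 0.0196), lower in 2 of 2 samples and under 1.5-fold, and the adjusted p reached 0.137 when single libraries were left out.

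With Dnmt1 *Asb4* was at 732 and 721 in *Tet3*+/+ cells, 377 and 389 in *Tet3* m/m cells and 352 and 309 in *Tet3*-/- cells. It rose in *Tet3* m/m cells, fell in *Tet3*-/- cells and overlapped its EV values in *Tet3*+/+ cells, so that *Tet3* m/m and *Tet3*-/- cells came to similar levels. Dnmt1 gave a log2 difference of 1.503 (SE 0.11; limma, Benjamini-Hochberg adjusted p 1.07e-08) in *Tet3* m/m cells, higher in 2 of 2 samples. In *Tet3*-/- cells it gave a log2 difference of -0.79 (SE 0.11; limma, Benjamini-Hochberg adjusted p 6.84e-05), lower in 2 of 2 samples. In *Tet3*+/+ cells it gave a log2 difference of 0.02 (SE 0.11; limma, Benjamini-Hochberg adjusted p 0.951), higher than the EV mean in 2 of 2 samples, and without 1 EV library the value was -0.04. The interaction of *Tet3* m/m with vector was a log2 difference of 1.48 (SE 0.16; limma, Benjamini-Hochberg adjusted p 1.66e-05), with *Tet3* m/m upward in 2 of 2 samples. That of *Tet3*-/- with vector was a log2 difference of -0.81 (SE 0.16; limma, Benjamini-Hochberg adjusted p 0.00237), with *Tet3*-/- downward in 2 of 2 samples. Over the alternatives their adjusted p reached at most 6.82e-05 and 0.00291, and up to 0.000632 and 0.0195 when single libraries were left out. With Dnmt1, *Asb4* thus differed from EV in opposite directions in the 2 edited genotypes. The upward difference starts from low EV values of the kind that chose the genes, which favours it. In the Tet3-CD experiment the counts with EV and Tet3-CD were 718 and 643 in *Tet3*+/+ cells, 105 and 143 in *Tet3* m/m cells, and 541 and 155 in *Tet3*-/- cells. Lowest were the *Tet3* m/m libraries, with 0.147 of *Tet3*+/+ under EV, and the *Tet3*-/- library with Tet3-CD fell close to them. Tet3-CD over EV gave 0.286 (95% interval 0.239 to 0.342) in *Tet3*-/-, 1.36 (95% interval 1.06 to 1.75) in *Tet3* m/m cells and 0.896 (95% interval 0.803 to 0.999) in *Tet3*+/+ cells. *Asb4* therefore fell in *Tet3*-/- cells with either plasmid, and rose in *Tet3* m/m cells with either, as single libraries in the Tet3-CD experiment.

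*Ppp1r9a* encodes neurabin-I, an actin-binding protein of neurons that targets protein phosphatase. Its day 3 counts were 3144, 3507 and 3208 in *Tet3*+/+ cells, 3976, 3600.0 and 3271 in *Tet3* m/m cells and 2714 and 3165 in *Tet3*-/- NE cells. Both edited genotypes overlapped *Tet3*+/+, and the *Tet3* m/m mean was 110.0% of it. With EV in the Dnmt1 experiment the counts were 2526 and 2517 in *Tet3*+/+ cells, 2007 and 2105 in *Tet3* m/m cells and 3059 and 3162 in *Tet3*-/- cells, and with Dnmt1 they were 2698 and 2579, then 2285 and 2560.0, then 2956 and 2672. With EV the *Tet3* m/m cells lay below and the *Tet3*-/- cells above *Tet3*+/+ without overlap, at 81.5% and 123%. *Tet3*-/- against *Tet3*+/+ with EV was a log2 difference of 0.30 (SE 0.06; limma, Benjamini-Hochberg adjusted p 0.000449), higher in 2 of 2 samples, while on day 3 it was a log2 difference of -0.16 (SE 0.12; limma, Benjamini-Hochberg adjusted p 0.457), lower in 2 of 2 samples. Dnmt1 in *Tet3* m/m cells gave a log2 difference of 0.23 (SE 0.06; limma, Benjamini-Hochberg adjusted p 0.0219), higher in 2 of 2 samples, under 1.5-fold like every tested difference of this gene, and without single libraries it was as low as 0.15 with an adjusted p up to 0.271. For EV and Tet3-CD the counts were 2194 and 2432 in *Tet3*+/+ cells, 1849 and 2012 in *Tet3* m/m cells, and 2430.0 and 2127 in *Tet3*-/- cells. The *Tet3* m/m level was a little below *Tet3*+/+, at 0.843 with EV, and *Ppp1r9a* ran from 81.5% to 110.0% of *Tet3*+/+ over the 5 vector groups.

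Set against a 2-fold loss, the 7 genes fell into different classes of residual level. In *Tet3* m/m cells on day 3, *Mest* and *Nap1l5* were under 10% of *Tet3*+/+, *Copg2* and *Asb4* were between 35 and 70%, and *Peg10*, *Sgce* and *Ppp1r9a* were outside both ranges. With EV in the Dnmt1 experiment *Mest* and *Nap1l5* were again under 10%, and *Copg2* and *Sgce* were between 35 and 70%. With Dnmt1 only *Mest* of the 7 was under 10%, *Nap1l5* was at 20.1%, and *Copg2*, *Peg10*, *Sgce* and *Asb4* were between 35 and 70%. In the Tet3-CD experiment *Mest* was under 10% with either vector and *Nap1l5* with Tet3-CD but not with EV (16.3%), and *Copg2* was between 35 and 70% with both. *Mest* and *Copg2* thus kept their classes in all 5 *Tet3* m/m groups, and *Nap1l5* rested on 2 to 6 reads per group. Of all genes tested, 0.285% on day 3, 0.526% with EV and 0.266% with Dnmt1 were under 10% of *Tet3*+/+ in *Tet3* m/m cells, and 9.94, 12.8 and 12.9% were between 35 and 70%. With EV and Tet3-CD in the Tet3-CD experiment 0.704 and 0.526% were under 10%, and 14.2 and 13.6% between 35 and 70%. In *Tet3*-/- cells none of the 7 was under 10% in any of the 5 groups, beside 0.128% of all genes tested on day 3, 1.82 and 0.604% with EV and Dnmt1, and 0.252 and 0.412% with EV and Tet3-CD. Between 35 and 70% were *Asb4* on day 3, *Mest* and *Asb4* with Dnmt1 and *Mest* with either vector of the Tet3-CD experiment, beside 9.39, 14.4, 11.2 and 10.7% of all genes tested in those groups.

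**Figure D2:**
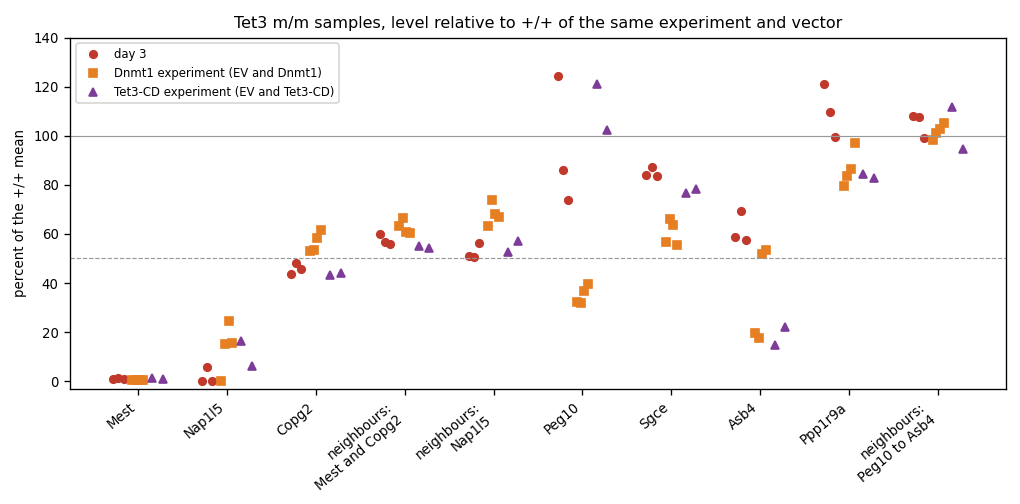
Level of each of the 7 genes in every *Tet3* m/m sample, in percent of the *Tet3*+/+ mean of the same experiment and vector, beside the median of neighbouring genes, with a dashed line at 50%. *Mest* lies under 2% in all *Tet3* m/m samples and *Copg2* lies near the line, while *Peg10* runs from 32% to above 100%.

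In limma a gene counted as called when it changed more than 1.5-fold with an adjusted p (Benjamini-Hochberg) below 0.05. In *Tet3*-/- cells on day 3, 0 of 7 were called by limma, edgeR or DESeq2, beside 0.642% of all 17915 genes tested, or 115, called by limma, 86 by edgeR and 917 by DESeq2, with 3608 genes at an unadjusted p under 0.05 in limma. That background count rested on single libraries: it was 0 without *Tet3*+/+ replicate 1 or 3, *Tet3* m/m replicate 2 or either *Tet3*-/- replicate, 2 without *Tet3*+/+ replicate 2, 706 without *Tet3* m/m replicate 1 and 565 without *Tet3* m/m replicate 3, and none of the 7 genes was called in any of these fits. In *Tet3*-/- cells with EV, 0 of 7 were called by limma, edgeR or DESeq2 although 24.9% of 18055 genes were, with 10441 genes at an unadjusted p under 0.05, and 4 of the 7 had an adjusted p under 0.05 (*Copg2*, *Peg10*, *Ppp1r9a* and *Asb4*) in limma, beside 9612 of all genes. The median log2 difference of the 7 genes was 0.01 there and -0.07 on day 3, beside 0.00 and -0.01 for all genes tested.

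Dnmt1 against EV called 0 of 7 genes in *Tet3*+/+ cells by limma, edgeR or DESeq2, beside 1.17% of all genes (212) by limma and 3592 genes at an unadjusted p under 0.05. In *Tet3* m/m cells it called 2 of 7, *Mest* and *Asb4*, both higher, beside 2.46% of all genes. In *Tet3*-/- cells it called 1 of 7, *Asb4*, lower, beside 3.53% of all genes (638). Medians of the 7 genes were 0.02, 0.51 and -0.15 in *Tet3*+/+, *Tet3* m/m and *Tet3*-/- cells, beside medians of 0.00 to 0.01 in size for all genes, and the 0.51 starts from the EV values that the choice of genes favours. The count of all genes called in *Tet3*+/+ cells was 112 or 127 without an EV library and 76 without Dnmt1 replicate 1, and in *Tet3*-/- cells 413 without EV replicate 2, 1025 without Dnmt1 replicate 1 and 366 without Dnmt1 replicate 2, whereas the 7 genes gave 0 and 1 in all those fits. Without *Tet3* m/m EV replicate 2, 1 of 7 was called in *Tet3* m/m cells, *Asb4*. In the Tet3-CD experiment, with 1 sample a group, 1 of 7, *Peg10*, was at least 2-fold higher in *Tet3*-/- than in *Tet3*+/+ cells with EV, beside 8.96% of 17481 genes. With Tet3-CD in both genotypes the ratio of *Peg10* was 1.75, short of 2-fold. There *Nap1l5* was 2-fold higher (2.17), beside 9.19% of all genes, and *Asb4* 2-fold lower (0.241), beside 6.03%. In *Tet3*+/+ cells Tet3-CD moved 0 of 7 genes 2-fold, beside 2.99% of all genes higher and 3.66% lower. In *Tet3* m/m cells 1 of 7 was 2-fold lower with Tet3-CD (*Nap1l5*), beside 2.20% of all genes, and none was 2-fold higher, beside 2.13%. That *Nap1l5* ratio rests on 2 against 6 reads, and its 95% interval, 0.0332 to 1.88, spans no change. In *Tet3*-/- cells 1 of 7 was 2-fold higher with Tet3-CD (*Nap1l5*), beside 4.68%, and 1 of 7 was 2-fold lower (*Asb4*), beside 5.34%.

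The surroundings of each place give the RNA level of genes that are mostly not imprinted. They are the 20 tested genes nearest on either side in the order of GRCm38.p6. The 7 genes and *Tet3* were left out, as were *Pon3* and *Pon2*, which lie between genes of the *Peg10* to *Asb4* cluster. Around *Mest* and *Copg2* the median gene of the day 3 *Tet3* m/m clones was at 60.1, 56.7 and 55.9% of *Tet3*+/+, with 37 of 40 genes lower and a median log2 difference of -0.71. Around *Nap1l5* the clones were at 50.9, 50.4 and 56.3%, with 38 of 40 lower. Around the *Peg10* to *Asb4* cluster, close to the end of the chromosome, they were at 108, 108 and 99.0%, with 11 of 29 lower, beside 49.9% of all genes tested. The surroundings of *Mest* and *Nap1l5* were thus lowered in all 3 *Tet3* m/m clones to somewhat above 50%, and those of the cluster were not. In the *Tet3*-/- clones the medians around *Mest* were 106 and 112% of *Tet3*+/+, with 14 of 40 genes lower. The loss of *Mest* and *Nap1l5* RNA went well beyond that of their surroundings, while *Copg2*, at 45.9%, lay a little below them.

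In the Dnmt1 experiment the EV *Tet3* m/m samples had medians of 63.2 and 66.3% around *Mest*, 63.1 and 73.7% around *Nap1l5* and 98.3 and 101% around the cluster. With Dnmt1 they were 60.7 and 60.5%, 68.1 and 67.0% and 103 and 105%. Genes lower in EV *Tet3* m/m cells numbered 34 of 40 around *Mest*, 32 of 40 around *Nap1l5* and 15 of 28 around the cluster. *Peg10*, *Sgce* and *Asb4* were at 32.1, 61.2 and 18.8% of *Tet3*+/+ in these cells while the median gene around them was near *Tet3*+/+, although single genes there, such as *Casd1*, were lower. In EV *Tet3*-/- cells the surroundings of *Mest* were above *Tet3*+/+, at 126 and 135.3%, with *Mest* itself at 101%. In the Tet3-CD experiment the *Tet3* m/m libraries with EV and Tet3-CD had medians of 55.3 and 54.3% around *Mest*, 52.6 and 57.2% around *Nap1l5*, and 112 and 94.5% around the cluster. Neither vector moved the surroundings of *Mest* toward *Tet3*+/+ levels in *Tet3* m/m cells. Around *Tet3*, further along the chromosome, the day 3 *Tet3* m/m clones were at 51.7, 52.5 and 58.2%.

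The nearest tested genes outside each place put single genes beside these medians, and not all of them moved alike. *Cep41*, next to *Mest* and *Copg2*, was at 605, 566 and 606 in *Tet3*+/+ and 292, 304 and 302 in *Tet3* m/m clones on day 3, or 50.6% of *Tet3*+/+. *Klf14*, on the other side, was at 51.2, 38.8 and 77.4 in *Tet3* m/m cells and 27.0, 18.7 and 25.7 in *Tet3*+/+ clones, without overlap but not called (limma, Benjamini-Hochberg adjusted p 0.136), and its log2 difference was -0.08 with EV in the Dnmt1 experiment and -1.83 with EV in the Tet3-CD experiment. The gene that hosts *Nap1l5*, *Herc3*, and the next gene, *Fam13a*, had log2 differences of -0.57 and -1.38 on day 3, -0.42 and -0.57 with EV in the Dnmt1 experiment and 0.03 and 0.11 with EV in the Tet3-CD experiment, where neither was lower. At the cluster, *Casd1* and *Pdk4* had differences of -0.26 and 0.80 on day 3, neither of them called (limma, Benjamini-Hochberg adjusted p 0.155 and 0.0689), and with EV *Casd1* fell by 1.02 and *Pdk4* rose by 2.25. The neighbours of *Tet3*, *Bola3* and *Dguok*, fell by 0.95 and 0.59 on day 3. On day 3 *Mest*, at 1.20% of *Tet3*+/+, thus lay next to a gene at 50.6%, and *Nap1l5*, at 1.98%, inside a gene at 67.3%.

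**Figure D3:**
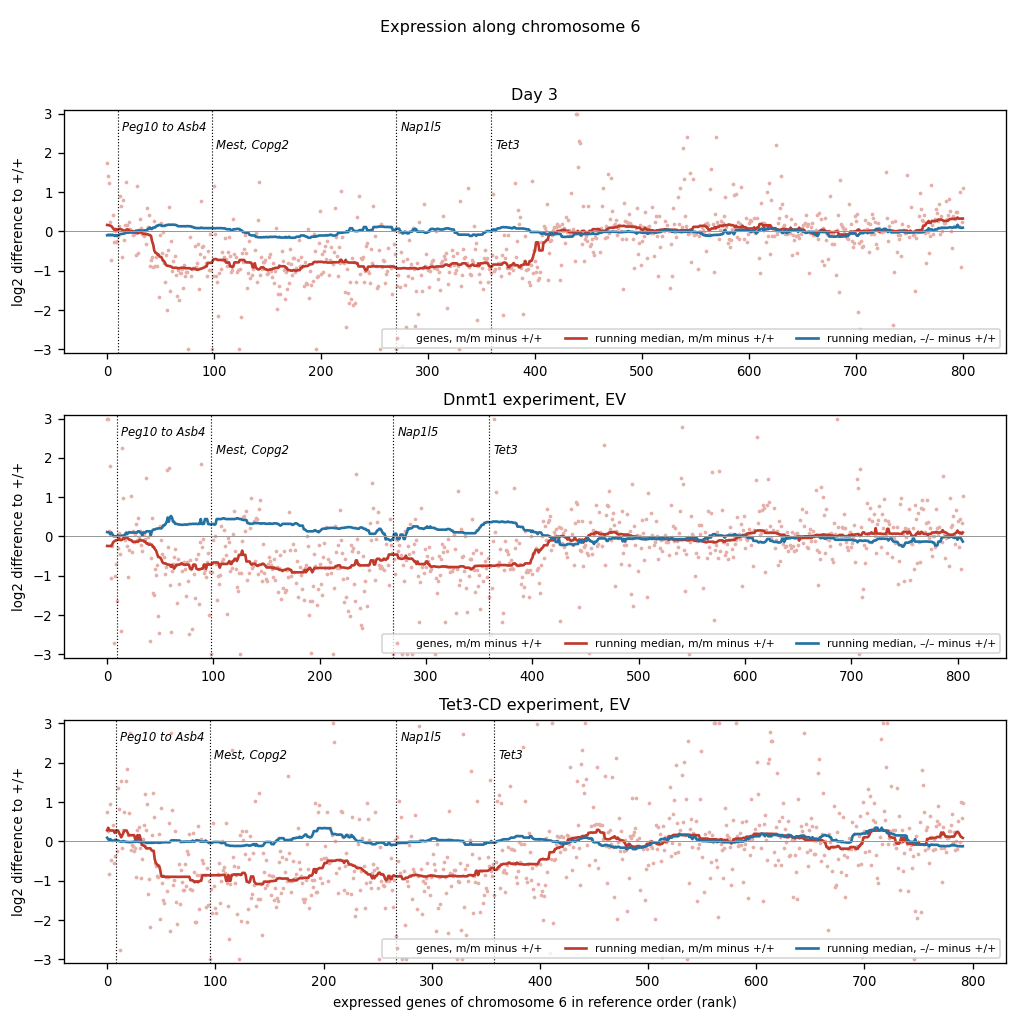
Log2 difference of each tested gene from *Tet3*+/+ against its rank along chromosome 6, with the running median of 41 genes, in 3 panels for the day 3, Dnmt1 (EV) and Tet3-CD (EV) experiments, points limited to 3 in either direction. The running median of *Tet3* m/m (red) starts near 0 at the *Peg10* to *Asb4* cluster on day 3 and in the Dnmt1 experiment and above 0 (0.16 to 0.28 at its genes) in the Tet3-CD experiment, and it runs below 0 at *Mest* and *Nap1l5*, and that of *Tet3*-/- (blue) does not fall so.

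Other genes in or near these imprinted domains were listed by place and by published imprinting, 39 in all, of which 28 were tested on day 3 and 29 in the Dnmt1 experiment. In day 3 *Tet3* m/m clones 7 were called lower (*Cep41*, *Mkln1*, *Zc3hc1*, *Ube2h*, *Fam13a*, *Pyurf* and *Tigd2*, by -0.65 to -1.38) and 1 higher (*Pon2*), beside 5.19% of all genes lower and 5.06% higher, with a median of -0.25. The *Tet3* m/m difference of *Copg2*, -1.12, falls inside that range, and that of *Mest*, -6.40, far outside. With EV 10 were called lower in *Tet3* m/m cells and 2 higher (*Calcr* and *Pdk4*), beside 10.9% of all genes lower and 10.3% higher, with a median of -0.42, *Col1a2* being the lowest at -2.70. In *Tet3*-/- cells on day 3 limma and edgeR called 0 and DESeq2 2, with 5 at an unadjusted p under 0.05 in limma and a median of 0.01. Dnmt1 against EV called 0 of them in *Tet3*+/+ by limma, edgeR or DESeq2 (6 at an unadjusted p under 0.05), 2 in *Tet3* m/m (*Col1a2* higher and *Pdk4* lower) and 3 in *Tet3*-/- cells (*Pdk4* higher, *Calcr* and *Col1a2* lower), with medians of 0.01, -0.01 and -0.04. Of all genes, Dnmt1 called 0.421% higher and 0.753% lower in *Tet3*+/+ cells, 1.78 and 0.681% in *Tet3* m/m cells and 2.51 and 1.02% in *Tet3*-/- cells, and the day 3 *Tet3*-/- comparison called 0.458 and 0.184%. *Col1a2*, like the fibroblast marker *Col1a1*, is a collagen gene. Fibroblast sums of *Tet3* m/m cells were 1799.5 and 2069 with EV, beside 12082 and 10926 in *Tet3*+/+ cells, and 2861 and 2969 with Dnmt1. In *Tet3*-/- cells they were not lower with Dnmt1. The part of fibroblast markers in the *Col1a2* changes was not tested.

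Paternally expressed genes outside chromosome 6, 26 listed and 23 tested on day 3, show whether the *Mest* and *Nap1l5* pattern was shared by other genes of their kind. Their counts, and those of the maternally expressed genes below, stand beside the same shares of all genes as those of the chromosome 6 list. In day 3 *Tet3* m/m clones 4 were called lower (*Igf2* -1.56, *Usp29* -0.79, *Dlk1* -1.45 and *Plagl1* -0.73) and 1 higher (*Magel2* 1.42), with a median of -0.10. *Igf2* was between 25.7 and 42.3% of *Tet3*+/+ in the 3 *Tet3* m/m clones and *Dlk1* at 39.6, 36.3 and 33.1%, so neither was lost to the degree of *Mest* or *Nap1l5*. With EV 7 of 24 were lower in *Tet3* m/m cells (*Igf2*, *Peg3*, *Usp29*, *Dlk1*, *Plagl1*, *Airn* and *Sfmbt2*) and 2 higher (*Magel2* and *Rasgrf1*), while in *Tet3*-/- cells limma, edgeR and DESeq2 each called 10, in limma all higher, beside 11.04% of all genes called higher by limma and 13.9% lower, with medians of -0.24 and 0.58. On day 3 limma and edgeR called 0 of them in *Tet3*-/- cells and DESeq2 1, with 4 at an unadjusted p under 0.05 in limma and a median of 0.15. Dnmt1 raised 2 in *Tet3*+/+ cells (*Peg12* and *Plagl1*) and 6 in *Tet3* m/m cells (*Igf2* 0.62, *Peg3* 0.60, *Usp29* 0.92, *Peg12* 0.74, *Rtl1* 0.92 and *Plagl1* 0.95), beside 0.61 for *Mest*, and lowered 1 in *Tet3*-/- cells (*Dlk1* -0.79). Of 20 maternally expressed genes outside chromosome 6, 19 were tested, and 2 were lower in day 3 *Tet3* m/m clones (*Cdkn1c* -0.92 and *Ascl2* -1.21), 7 in EV *Tet3* m/m cells (*H19* at -2.26, *Cdkn1c*, *Phlda2*, *Igf2r*, *Gnas*, *Zim1* and *Ascl2*). In *Tet3*-/- cells on day 3 limma and edgeR called 0 and DESeq2 1, with 5 at an unadjusted p under 0.05 in limma, and with EV 2 were higher (*Meg3* and *Blcap*) and 1 lower (*Kcnq1*). Dnmt1 raised 1 in *Tet3*+/+ cells (*Ascl2* 0.90), and in *Tet3* m/m and *Tet3*-/- cells limma, edgeR and DESeq2 called 0 of them, with 5 and 9 at an unadjusted p under 0.05 in limma, where *Asb4*, maternally expressed on chromosome 6, was called in both. With EV in the Tet3-CD experiment, *Tet3* m/m over *Tet3*+/+ passed 2-fold downward for 5 of 27 chromosome 6 genes, 5 of 24 paternally and 1 of 19 maternally expressed genes, and upward for 5, 2 and 2, beside 8.37% of all genes downward and 13.3% upward. The maternally expressed gene was *Grb10*, with a log2 difference of -4.72 between single libraries. In the same libraries *Nap1l5* was at -2.42 and *Mest* at -6.20, so *Grb10* fell further than *Nap1l5* there. In *Tet3* m/m cells on day 3 *Grb10* had a log2 difference of -1.32 (SE 1.05) and was not called. With EV in the Dnmt1 experiment it was at -0.07.

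Over all 26 samples, as log2 differences from the *Tet3*+/+ mean of each experiment, the 5 genes outside the list whose pattern was most like that of *Mest* among 16812 were *Smo* (r 0.981, rho 0.865), *Usp39* (0.9803, 0.721), *Krcc1* (0.977, 0.651), *Igf2bp3* (0.977, 0.809) and *Tprkb* (0.977, 0.543), all on chromosome 6. The samples fall into a low *Tet3* m/m and a high remaining cluster, so these values rank genes by how they follow that split and carry no test. On day 3 these 5 genes were at 36.6, 48.9, 52.2, 48.9 and 52.7% of *Tet3*+/+ in *Tet3* m/m cells, beside 45.9% for *Copg2* and 1.20% for *Mest*. Among the listed genes, Pearson's r with *Mest* was 0.927 for *Copg2*, 0.872 for *Nap1l5*, 0.760 for *Sgce*, 0.672 for *Peg10*, 0.626 for *Asb4* and 0.405 for *Ppp1r9a*.

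The promoters of *Mest* and *Nap1l5*, the 2 of the 7 genes with the lowest shares of *Tet3*+/+ in *Tet3* m/m cells on day 3, and that of *Copg2*, which stayed near the level of its surroundings, are shown to set their sequence beside their levels. They come from RefSeq on GRCm38.p6, as 300 bases that run from 250 before to 50 after the start, and 5 of the 7 genes were matched. *Peg10* and *Sgce* were not matched. They are paternally expressed like *Mest* and *Nap1l5* but stood at 94.7 and 85.0% of *Tet3*+/+ in day 3 *Tet3* m/m cells. Their promoters are therefore missing from the comparison of letters with levels. The hexamer TGCCGC, which the imprint-keeping protein ZFP57 binds when its CpG is methylated, was searched on both strands, and capitals mark it or its complement GCGGCA. Of 32851 promoters of this length, 11.6% hold it at least 1 time and 1.53% at least 2 times. The *Mest* window at chr6:30737800-30738099 (plus strand, 17 CpG) holds 2, the *Nap1l5* window at chr6:58907077-58907376 (minus strand, 17 CpG) holds 2, and the *Copg2* window at chr6:30896745-30897044 (minus strand, 25 CpG) holds 1.
Mest: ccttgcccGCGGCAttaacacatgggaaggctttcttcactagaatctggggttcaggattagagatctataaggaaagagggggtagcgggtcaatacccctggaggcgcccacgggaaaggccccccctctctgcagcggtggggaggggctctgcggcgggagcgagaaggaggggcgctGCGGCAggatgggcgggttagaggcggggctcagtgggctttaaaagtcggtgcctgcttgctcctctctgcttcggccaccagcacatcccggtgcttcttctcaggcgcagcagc
Nap1l5: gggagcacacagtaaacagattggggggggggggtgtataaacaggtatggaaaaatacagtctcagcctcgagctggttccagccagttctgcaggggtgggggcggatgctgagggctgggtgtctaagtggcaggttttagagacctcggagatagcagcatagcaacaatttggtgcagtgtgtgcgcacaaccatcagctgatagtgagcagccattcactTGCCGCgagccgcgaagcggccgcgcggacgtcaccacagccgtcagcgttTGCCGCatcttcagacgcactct
Copg2: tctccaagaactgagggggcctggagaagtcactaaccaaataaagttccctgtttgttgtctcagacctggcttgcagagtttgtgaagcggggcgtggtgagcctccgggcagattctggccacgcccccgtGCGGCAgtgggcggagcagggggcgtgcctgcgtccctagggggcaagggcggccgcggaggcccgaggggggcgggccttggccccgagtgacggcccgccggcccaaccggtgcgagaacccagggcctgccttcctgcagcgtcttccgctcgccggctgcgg

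The windows of *Ppp1r9a* and *Asb4*, and that of an upstream start of *Mest*, hold no such hexamer. That *Mest* window has 8 CpG, the 2 starts of *Ppp1r9a* have 48 and 10 and those of *Asb4* 6 and 8, beside a median of 7 over all promoters, so a count above that median was not particular to *Mest* and *Nap1l5*. A match is a description of the letters only, and neither binding nor methylation at these places was examined. Whether the paternal or the maternal copy of any of the 7 genes was lost or silent was not tested.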

How the data were processed

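The RNA-seq signal values are counts that the authors made with Trim Galore 0.6.7, STAR 2.7.9a, featureCounts and DESeq2 and deposited as normalized counts per gene. Dividing each column by its smallest step gave back whole reads (100% of values within 0.01 of a whole number), from 31155842 to 50845950 reads per sample. Genes with a mean of at least 10 were fitted on log2(normalized count + 1) with limma 3.58.1 in R 4.3.3, all groups of an experiment in 1 fit, and p-values were adjusted by Benjamini-Hochberg over all genes tested. A gene was called past 1.5-fold at an adjusted p below 0.05. Alternatives used edgeR 4.0.16 and DESeq2 1.42.0 on the recovered reads, other pseudocounts and filters, and each library left out. The Tet3-CD experiment has 1 sample a group, so ratios outside the comparison that chose the genes carry exact conditional binomial 95% intervals. Tables and figures used Python 3.11.15 with pandas 2.3.3, scipy 1.17.1 and matplotlib 3.10.9. The genes and lists were chosen with earlier results of these data known. Genes named beside them were Tet3 and Dnmt1, called genes of the lists or the 3 with the largest change, the nearest tested neighbours, and the 5 genes most like Mest.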

Additional observations from a re-analysis of the deposited data

Results flagged for a closer look

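The effect of the Dnmt1 vector differed between genotypes for 3 of the 7 genes, by an interaction term in the limma fit of all 12 samples at an adjusted p below 0.05, beside 236 of all 18055 genes for *Tet3* m/m and 1753 for *Tet3*-/-. The low EV values of *Tet3* m/m cells are of the kind that chose the genes, which favours an upward effect in those cells. For *Mest* the effect in *Tet3* m/m minus that in *Tet3*+/+ cells was 0.38 on the log2 scale (limma, Benjamini-Hochberg adjusted p 0.0150), with *Mest* higher in 2 of 2 samples of either genotype, and with edgeR and DESeq2 it did not pass 0.05 (0.122 and 0.138; range over the alternatives 0.0114 to 0.138). For *Peg10* it was 0.25 (limma, Benjamini-Hochberg adjusted p 0.0394), with *Peg10* higher in 2 of 2 samples of either genotype, and the adjusted p reached 0.0542 among the alternatives and 0.217 when single libraries were left out. For *Asb4* it was 1.48 (limma, Benjamini-Hochberg adjusted p 1.66e-05), with *Asb4* higher in 2 of 2 *Tet3* m/m samples.

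In *Tet3*-/- minus *Tet3*+/+ cells the difference of the vector effects was -0.57 for *Mest* (limma, Benjamini-Hochberg adjusted p 8.38e-05), with *Mest* lower in 2 of 2 *Tet3*-/- samples and higher in 2 of 2 *Tet3*+/+ samples. For *Asb4* it was -0.81 (limma, Benjamini-Hochberg adjusted p 0.00237), with *Asb4* lower in 2 of 2 *Tet3*-/- samples. The *Tet3*+/+ EV samples enter both sets of differences, and they also enter differences of the kind that chose the genes.

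*Ppp1r9a* was below the *Tet3*+/+ mean in both *Tet3*-/- clones on day 3, at 82.6 and 96.3% of it, and above it in both *Tet3*-/- samples with EV in the Dnmt1 experiment, where the group stood at 123% of *Tet3*+/+. The difference between the experiments, which were normalised separately, was not tested.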

How the results depend on the processing

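Among the tested values of the 7 genes (5 comparisons, 35 values), 681 of 694 alternative values kept the direction and the side of the threshold, 1 fell short of it and 12 changed sign, none of these 12 being a called value. Of 263 alternatives to the 14 described *Tet3* m/m differences, 250 moved by less than the spread between replicates and 13 by more. The settings tried were edgeR and DESeq2 on recovered reads, TMM, a pseudocount of 0.1 or 5, a stricter filter (mean of at least 50) or none, a fit of only the groups compared, no fold threshold, a replicate block, and each library left out, where a lone sample is assumed to vary like the other groups.

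The count of all genes called in *Tet3*-/- cells on day 3, 115, moved most. It was 64 with a pseudocount of 0.1, 223 with 5, 58 with a mean of at least 50, 917 with DESeq2, 67 with TMM and 664 with only the groups compared, and 0 to 706 with single libraries left out, and the cause was not tested. Without a fold threshold, which by construction adds genes, the counts were 8230 for *Tet3* m/m and 9612 for *Tet3*-/- cells with EV, 1010, 1842 and 2423 for Dnmt1 in *Tet3*+/+, *Tet3* m/m and *Tet3*-/- cells, and 236 and 1753 for the interactions with *Tet3* m/m and *Tet3*-/-. A fit of only the groups compared gave 366 and 419 for Dnmt1 in *Tet3*+/+ and *Tet3*-/- cells.

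For *Copg2* the Dnmt1 effect in *Tet3* m/m cells was 0.00158 with edgeR and 0.000952 with TMM, the other side of 0 from a value near 0. Medians of the neighbouring genes in *Tet3* m/m cells on day 3 were 0.16 around the *Peg10* to *Asb4* cluster with 10 genes on either side and -0.91 around *Mest* with 40. With EV in the Dnmt1 experiment they were -0.058 and -0.095 around the cluster with 10 and 40 genes and -0.70 around *Mest* with 40. In the Tet3-CD experiment the cluster median with EV was 0.41 with 10 genes and 0.049 with 40, beside 0.16 with 20. With Tet3-CD it changed sign with the number of genes, at 0.15 with 10, -0.082 with 20 and -0.15 with 40. The cause was not tested.

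With single libraries left out, the *Tet3*-/- difference on day 3 ran from -0.48 to 0.010 for *Mest* and from -0.21 to 0.12 for *Copg2*, and with EV from -0.032 to 0.051 for *Mest* and from -0.035 to 0.045 for *Sgce*. *Mest* in *Tet3* m/m cells with EV ran from -7.89 to -7.73. The Dnmt1 effect in *Tet3*+/+ cells gave 76 to 294 genes called and -0.035 to 0.075 for *Asb4*. In *Tet3* m/m cells it gave 1 to 2 of the 7 genes called, 0.53 to 0.69 for *Mest*, -0.041 to 0.036 for *Copg2* and -0.18 to 1.67 for *Nap1l5*. In *Tet3*-/- cells it gave 366 to 1025 genes called. The interaction with *Tet3* m/m ran from -0.15 to 0.069 for *Sgce*. That with *Tet3*-/- gave 474 to 1086 genes and 1 to 2 of the 7 genes called, -0.63 to -0.51 for *Mest* and -0.11 to 0.025 for *Copg2*. Fewer samples enter each of these fits, and any further cause was not tested.

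Replicate numbers did not pair samples: deviations from the group means of equally numbered samples correlated at -0.098 to 0.082 on day 3 and at 0.004 and -0.025 in the Dnmt1 experiment. With a replicate block the counts were 98 for *Tet3*-/- on day 3, 4495 for *Tet3*-/- with EV, and 439 and 628 for the Dnmt1 vector with *Tet3* m/m and with *Tet3*-/- cells. In the Dnmt1 experiment the block held only the *Tet3* m/m and *Tet3*-/- libraries, since the *Tet3*+/+ EV libraries carry no distinct numbers, and for Dnmt1 in *Tet3*+/+ cells and the interactions it was not run.

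Depth limits *Nap1l5* most, with 2 to 6 reads per *Tet3* m/m group. Gene-level counts leave the parental alleles unresolved, DNA copy number was not measured, the Tet3-CD experiment has no replicates, and the reads of overlapping genes cannot be told apart.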
